A study of Mus musculus with 6 samples.

Results

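Transcripts of the skeletal muscle sarcomere and of its supply of calcium and energy were followed in brown adipose tissue (BAT) of wild-type and Letmd1 KO mice. The 39 genes were taken by symbol from the 23282 rows of the count files, and none of them was at 0 in all mice. Of these genes, 14 encode fast-fibre proteins, 7 encode slow-fibre proteins and 18 are used by both fibre types. Each group was 3 male C57BL/6N mice at 5 weeks of age, and the whole interscapular depot was sequenced as bulk RNA. The Letmd1 KO mice carried a knockout-first allele in every cell of the body, with a lacZ and neomycin cassette in the intron after exon 2 of Letmd1, so that a change in BAT can have its origin in another tissue. Libraries were made with QuantSeq, a kit that sequences mRNAs from their 3′ ends, so a longer gene does not gather more reads and levels of different genes can be set side by side as 3′ counts.

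Skeletal muscle contracts when myosin of the thick filament pulls on actin of the thin filament, and the troponin complex on the thin filament makes this pull depend on calcium. Fast and slow fibres use different genes for the same parts, so fast and slow transcripts are used to tell fibre types apart. Brown adipocytes share an ancestor with skeletal muscle in the embryo, and the interscapular depot lies against back muscles.

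The libraries held between 6669577 and 14574273 counts. Letmd1 had 5266 to 6490 counts in the wild-type mice and 0 to 1 in the Letmd1 KO mice. Values are given as counts or as CPM, for which edgeR's TMM method brought the libraries to one scale. A gene with 0 counts can still have had up to 3, which sets a floor of 0.176 to 0.396 CPM depending on the mouse and covers counting error only. Brown adipocyte genes were counted in all 6 mice, at a summed level of 39885 to 45238 CPM in wild-type BAT and 12375 to 16036 CPM in Letmd1 KO BAT. Most of each sum was Fabp4, at 25652 to 30157 CPM in wild-type BAT and 8515 to 12620 CPM in Letmd1 KO BAT. Ucp1, the uncoupling protein of brown fat, had 52719 to 58144 counts in wild-type BAT and 1926 to 8098 in Letmd1 KO BAT. In CPM, Ucp1 was at 5836 to 6867 and at 254 to 476. The labels do not say how the depots were cleaned or whether mice of a genotype were litter mates.

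For the muscle genes, 1 mouse of each genotype stood apart. Their summed counts were 1459, 6787 and 1389 in wild-type mice 1, 2 and 3, which is 0.0134% (95% Wilson interval 0.0128 to 0.0142), 0.0637% (0.0622 to 0.0652) and 0.0154% (0.0146 to 0.0162) of each library. In Letmd1 KO mice 1, 2 and 3 they were 6289, 4052 and 30699, or 0.0806% (0.0786 to 0.0826), 0.0608% (0.0589 to 0.0627) and 0.211% (0.208 to 0.213). Wild-type mouse 2 thus lay between Letmd1 KO mice 2 and 1, and the genotypes overlapped. Scaled to CPM, the sums were 157, 719 and 181 in wild-type BAT and 690, 535 and 1803 in Letmd1 KO BAT. Of the 39 genes, 18, 38 and 16 were over the floor in wild-type mice 1, 2 and 3, against 37, 38 and 38 in the Letmd1 KO mice. Letmd1 KO mouse 3 had the highest level of the 6 mice for 38 of the genes, and wild-type mouse 2 was above both other wild-type mice for 36. Counts of called muscle genes are therefore also given without each of these mice. Because these mice were singled out by their levels of the same genes, calls and folds without them are in large part set by that choice. No test of the muscle genes is drawn from them. In bulk RNA, fewer cells of a type and less RNA per cell cannot be told apart.

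**Figure D1:**
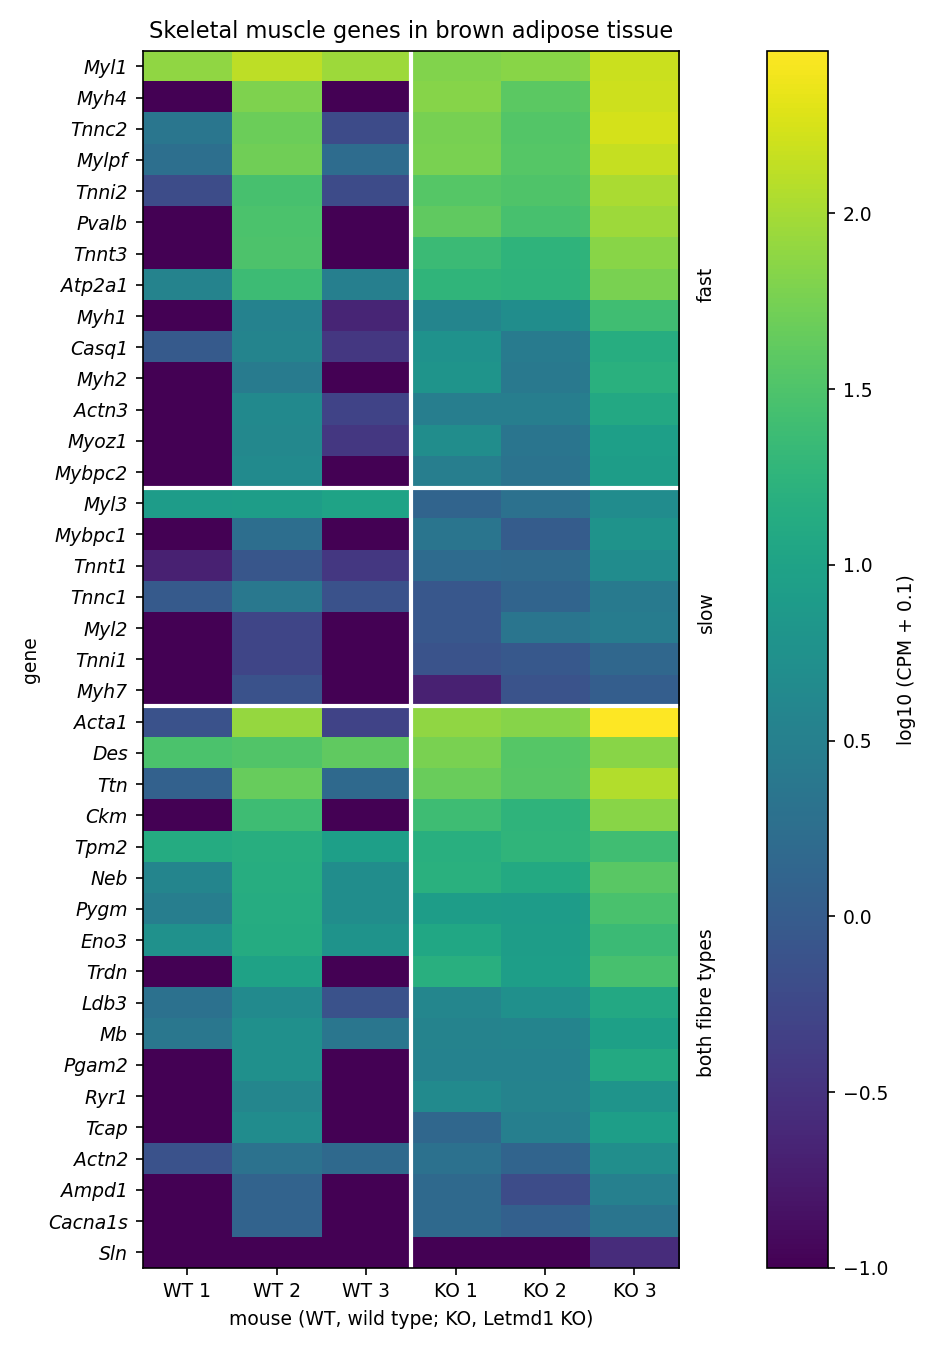
Heat map of the 39 muscle genes (rows, by fibre type and then by summed level) in the 6 mice (columns, wild type on the left), coloured by log10 of CPM plus 0.1. Wild-type mice 1 and 3 are dark for 17 genes with 0 counts in both, while wild-type mouse 2 has the colours of the Letmd1 KO mice.

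The regions in front of the genes that carry this pattern are shown first, because the named genes move together across mice. RefSeq start sites on GRCm38.p6 gave 37 windows of 250 bases upstream for 30 of the genes, and 32851 windows for all genes. Printed 5′ to 3′ on the strand of each gene, capitals mark matches on either strand to the E-box CANNTG (bound by myogenic and other helix-loop-helix factors), to the CArG box (bound by serum response factor), to the MEF2 motif and to the TATA box TATAAA. In no window did matches to different motifs overlap. By the gene spans of the GENCODE annotation, the printed windows of Ckm, Myl1 and Myl3 lie inside the gene. They are upstream of a RefSeq start only. The first 3 genes follow the pattern of the heat map, and Myl1 and Myl3 depart from it.
Acta1, chr8:123894776-123895025, minus strand: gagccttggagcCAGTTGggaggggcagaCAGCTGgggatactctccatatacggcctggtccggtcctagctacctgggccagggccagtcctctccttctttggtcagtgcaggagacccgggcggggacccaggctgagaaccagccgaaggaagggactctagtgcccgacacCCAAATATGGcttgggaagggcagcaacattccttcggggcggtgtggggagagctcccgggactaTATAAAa
Myh4, chr11:67237562-67237811, plus strand: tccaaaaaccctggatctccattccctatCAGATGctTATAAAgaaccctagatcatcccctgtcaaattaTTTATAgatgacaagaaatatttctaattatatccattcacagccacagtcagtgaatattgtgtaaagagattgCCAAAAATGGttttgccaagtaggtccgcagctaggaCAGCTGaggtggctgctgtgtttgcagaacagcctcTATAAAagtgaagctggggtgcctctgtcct
Ckm, chr7:19410844-19411093, plus strand: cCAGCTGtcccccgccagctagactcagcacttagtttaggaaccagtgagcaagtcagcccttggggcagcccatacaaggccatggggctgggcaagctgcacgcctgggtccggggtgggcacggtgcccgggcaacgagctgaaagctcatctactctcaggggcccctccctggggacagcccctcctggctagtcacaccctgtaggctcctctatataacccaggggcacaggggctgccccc
Myl1, chr1:66945057-66945306, minus strand: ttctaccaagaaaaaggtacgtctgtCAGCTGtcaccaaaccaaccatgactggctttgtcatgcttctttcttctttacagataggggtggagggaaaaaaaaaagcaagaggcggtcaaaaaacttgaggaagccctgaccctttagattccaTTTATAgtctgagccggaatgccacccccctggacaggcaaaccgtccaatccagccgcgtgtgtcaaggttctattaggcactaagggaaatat
Myl3, chr9:110763428-110763677, plus strand: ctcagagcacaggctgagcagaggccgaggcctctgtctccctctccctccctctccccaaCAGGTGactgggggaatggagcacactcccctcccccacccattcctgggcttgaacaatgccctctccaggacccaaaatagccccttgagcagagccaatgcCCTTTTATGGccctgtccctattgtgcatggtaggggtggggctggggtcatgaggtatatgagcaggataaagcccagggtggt
An E-box stood in 31 of the 37 windows (83.8%), against 66.2% of all windows. A CArG box stood in 5 windows (13.5%) of 4 genes, Acta1, Myh4, Myl3 and Ldb3, against 1.47% of all windows. The MEF2 motif stood in 1 window (2.70%), that of Ttn, against 0.508%, and the TATA box in 6 windows (16.2%), against 12.4%. Both an upstream CArG box and an E-box were present in Acta1, which was nearly absent from wild-type mice 1 and 3, and in Myl3, which was not. These are matches of letters and were not tied to binding by any value here. The genes Actn3, Ampd1, Myoz1, Neb, Sln, Tcap, Tnni2, Tnnt3 and Trdn had no window in the table.

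Acta1 encodes skeletal muscle alpha-actin, the actin of the thin filament. Its counts were 6, 776 and 3 among wild-type mice 1, 2 and 3, and 694, 521 and 4936 among Letmd1 KO mice 1, 2 and 3. Wild-type mouse 2 was above 2 of the 3 Letmd1 KO mice, so the genotypes overlapped. Wild-type BAT held 27.7 ± 47.2 CPM (SD, n = 3) and Letmd1 KO BAT 145 ± 126 CPM. The log2 fold change (Letmd1 KO against wild type) of 2.38 (SE 1.26) did not pass the threshold of 0.05 (adjusted p = 0.153 by the quasi-likelihood test of edgeR, adjusted over 12995 genes by the Benjamini-Hochberg method and called the edgeR adjusted p from here on). Without wild-type mouse 2 the edgeR adjusted p was 0.000463 and the mean of the Letmd1 KO mice was 280-fold that of wild-type mice 1 and 3. GENCODE places Acta1 on the minus strand of chromosome 8, from 123891769 to 123894751 of GRCm38.

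Over all genes tested, 23.7% were called higher and 22.3% lower in Letmd1 KO BAT. Of the 39 muscle genes, 35 passed the filter on low counts, 7 were called higher and 1 lower. Myh7, Myl2, Tnni1 and Sln did not pass the filter. The median log2 fold change was 1.88 over the 35 genes and 0.033 over all genes tested. The share of muscle genes called higher was thus close to that of the whole table, while their median fold was larger. The mice of a genotype differed more in these genes than in most others, as given below.

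Leaving out 1 mouse moved the calls far. Wild-type mouse 2 and Letmd1 KO mouse 3 had been singled out by their levels of these genes. Without wild-type mouse 2, 29 of 36 tested muscle genes were called higher and 1 lower, against 19.1% and 18.6% of all genes tested. For 17 of the 35 genes the remaining wild-type mice were then both at or under the floor, and with these folds set to their lower bound the median log2 fold was 3.65. For example, the Letmd1 KO mean was at least 247-fold higher for Myh4, at least 148-fold for Pvalb and at least 105-fold for Ckm, with the floor taken per library. Without Letmd1 KO mouse 3, 0 of 34 tested muscle genes were called higher and 1 lower by edgeR's quasi-likelihood test, against 19.7% and 18.6% of all genes tested. In that comparison 3 muscle genes had an unadjusted p under 0.05. DESeq2 over all 6 mice called 4 higher (Tnnt1, Tpm2, Des and Ldb3) and 1 lower. Over all 12995 genes it called 2946 higher and 2905 lower. Of the 7 genes called higher, Myh1, Myh2, Tnnt1, Neb and Casq1 were also called without wild-type mouse 2, while Tpm2 and Des were not (edgeR adjusted p = 0.0508 and 0.131). Without wild-type mouse 1 only Tnnt1 of the 7 kept its call, and the edgeR adjusted p of the others was 0.0736 (Tpm2) to 0.151 (Des). Without wild-type mouse 3 Tnnt1 and Des kept theirs, and the edgeR adjusted p of the others was 0.0642 (Myh2) to 0.11 (Tpm2). Other changes of the processing also ended calls. DESeq2 did not call Myh1, Myh2, Neb and Casq1 (DESeq2 adjusted p = 0.144, 0.249, 0.0804 and 0.0902). Quantile normalization with limma did not call Tnnt1, Tpm2, Des, Neb and Casq1 (limma adjusted p = 0.0931, 0.117, 0.0602, 0.0555 and 0.0954). Myh2, Tpm2 and Casq1 lost their calls with the replicate number as a block (edgeR adjusted p = 0.0661, 0.0744 and 0.0847), and Des did with the size factors of DESeq2 in edgeR (edgeR adjusted p = 0.0522). Without Letmd1 KO mouse 1, Myh2, Des, Neb and Casq1 lost theirs (edgeR adjusted p = 0.0664, 0.131, 0.0544 and 0.0697), as did Tpm2 without Letmd1 KO mouse 2 (edgeR adjusted p = 0.0567).

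Among the thick filament genes, the fast myosin heavy chains were the motor proteins with the most counts. Myh4, the heavy chain of the fastest fibres, had 0, 578 and 0 counts among wild-type mice and 624, 298 and 2661 among Letmd1 KO mice. Wild-type mouse 2 lay between Letmd1 KO mice 2 and 1, and the log2 fold change was 2.10 (SE 1.28, edgeR adjusted p = 0.208). Myh1, another fast heavy chain, had 0, 31 and 1 counts against 33, 37 and 425, without overlap in CPM (0 to 3.28 against 3.62 to 24.96). Of all genes tested, 30.1% had every Letmd1 KO mouse above every wild-type mouse. Myh1 rose by a log2 fold change of 3.27 (SE 1.07, edgeR adjusted p = 0.0323). Myh2, the heavy chain of fast oxidative fibres, had 0, 25 and 0 counts against 56, 18 and 267, with Letmd1 KO mouse 2 below wild-type mouse 2 in CPM. It was called higher at a log2 fold change of 3.15 (SE 1.05, edgeR adjusted p = 0.0346). Both calls were lost without Letmd1 KO mouse 3 (edgeR adjusted p = 0.221 for Myh1 and 0.175 for Myh2), and both were lost without wild-type mouse 1 or 3. The authors counted reads that align to several places, and the 3 fast heavy chain genes are close copies of each other, so reads could be split among them. Myh7, the slow heavy chain, had 0, 6 and 0 counts in wild-type BAT and 1, 5 and 17 in Letmd1 KO BAT.

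Mylpf, the regulatory light chain of fast fibres, had 16, 483 and 12 counts among wild-type mice and 532, 265 and 2423 among Letmd1 KO mice. Its order of mice was that of Myh4. Its slow counterpart Myl2 had 0, 4 and 0 against 7, 16 and 47. Mybpc2 and Mybpc1, the myosin-binding C proteins of fast and slow fibres, had 0 counts in wild-type mice 1 and 3, with 42 and 16 counts in wild-type mouse 2. In the Letmd1 KO mice Mybpc2 had 27, 15 and 144 counts and Mybpc1 had 19, 7 and 100.

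Myl1 and Myl3 did not share this pattern. Myl1 encodes the fast essential light chain, which stiffens the lever arm of myosin, and had 714, 1224 and 700 counts among wild-type mice and 576, 536 and 2626 among Letmd1 KO mice. Its lowest level was in Letmd1 KO mouse 1 and its highest in Letmd1 KO mouse 3, and the wild-type mice lay between them. The level was 99.2 ± 27.3 CPM in wild-type BAT and 96.1 ± 50.5 CPM in Letmd1 KO BAT (SD, n = 3 each), with a log2 fold change of -0.04 (SE 0.32, edgeR adjusted p = 0.933) whose sign turned under other scalings. Myl1 made up 48.9% and 50.4% of the counts of the 39 genes in wild-type mice 1 and 3, 18.0% in wild-type mouse 2 and 8.55% to 13.2% in the Letmd1 KO mice. Relative to 100 counts of Acta1 it had 158 in wild-type mouse 2 and 83.0, 103 and 53.2 in the Letmd1 KO mice.

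Myl3 encodes the essential light chain of slow fibres, which is also that of the heart ventricle. It had 75, 79 and 77 counts among wild-type mice and 11, 14 and 81 among Letmd1 KO mice. In CPM it was 8.08, 8.37 and 10.03 against 1.21, 1.85 and 4.76, so every Letmd1 KO mouse was below every wild-type mouse, as for 27.2% of all genes tested. Wild-type mouse 2 did not stand apart for Myl3. The level fell by 1.67 on the log2 scale (SE 0.44, edgeR adjusted p = 0.012). The call was kept in each setting listed under the processing except 1, in which the level of Acta1 was a term of the model (log2 fold change -1.88, edgeR adjusted p = 0.0616). Myl3 spans 110741861 to 110769798 of chromosome 9 on the plus strand, and its 5′ end overlaps that of Pth1r, a parathyroid hormone receptor gene on the other strand. Pth1r had 850, 885 and 1119 counts in wild-type BAT and 273, 440 and 372 in Letmd1 KO BAT, and its part in the result for Myl3 was not tested.

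**Figure D2:**
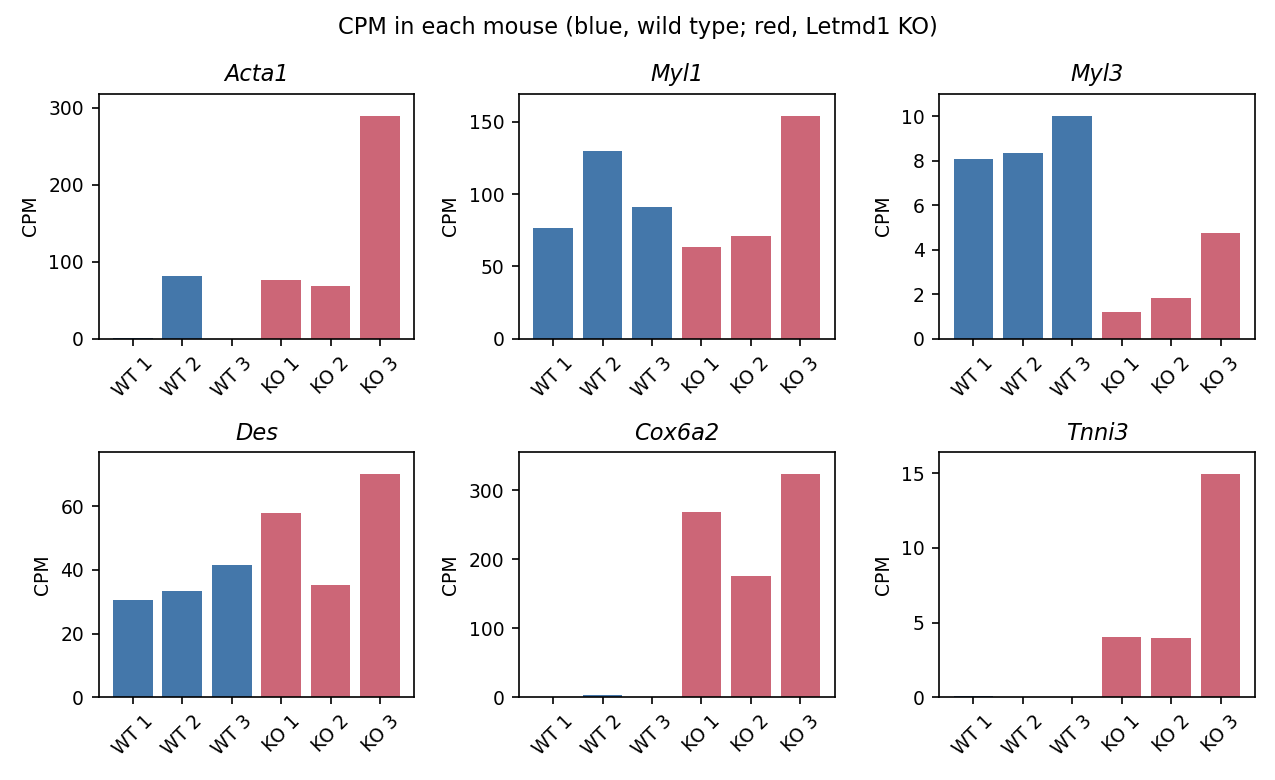
CPM of 6 genes in each mouse (bars, blue for wild type and red for Letmd1 KO), each panel on its own axis from 0. Acta1 is near 0 in wild-type mice 1 and 3 and at 82.2 CPM in wild-type mouse 2, Myl1 and Des are present in all mice, Myl3 is lower in all Letmd1 KO mice, and Cox6a2 and Tnni3 are at or near 0 in all wild-type mice.

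The troponin genes of the fast thin filament followed Acta1. Tnnt3 (troponin T, which binds tropomyosin) had 0, 299 and 0 counts among wild-type mice and 208, 133 and 1205 among Letmd1 KO mice. Tnnc2 (troponin C, the calcium sensor) had 20, 453 and 4 counts against 516, 258 and 2915. Tnni2 (troponin I, the inhibitor of the actin and myosin contact) had 5, 271 and 4 counts against 326, 240 and 1803. Tnni2 did not overlap in CPM (at most 28.7 against at least 31.7), but wild-type mouse 2 was near Letmd1 KO mice 1 and 2, and the log2 fold change of 2.53 (SE 1.05) had an edgeR adjusted p of 0.076. Neither Tnnt3 (log2 fold change 1.81, edgeR adjusted p = 0.248) nor Tnnc2 (2.36, edgeR adjusted p = 0.106) was called.

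The slow troponins were low in every mouse. Tnnt1 had 1, 7 and 2 counts among wild-type mice and 14, 11 and 80 among Letmd1 KO mice, and was 0.37 ± 0.331 CPM against 2.56 ± 1.85 CPM (SD, n = 3 each). The groups did not overlap, and Tnnt1 rose by a log2 fold change of 2.79 (SE 0.74, edgeR adjusted p = 0.0125). The edgeR adjusted p was 0.0775 without Letmd1 KO mouse 3. Tnni1 had 0, 4 and 0 counts against 6, 6 and 23. Tnnc1, the troponin C of slow fibres and heart, had 8, 22 and 5 counts against 7, 9 and 43, and its log2 fold change of 0.27 (SE 0.61, edgeR adjusted p = 0.748) changed sign under quantile normalization. Tnnc1 lies wholly inside Nisch on the opposite strand, which had 634 to 1502 counts per mouse.

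Tpm2 and Neb complete the thin filament. Tpm2, a tropomyosin that smooth muscle also expresses, had 123, 137 and 69 counts among wild-type mice and 139, 138 and 432 among Letmd1 KO mice. Its levels of 8.99 to 14.5 CPM and 15.3 to 25.4 CPM did not overlap, and it rose by a log2 fold change of 0.68 (SE 0.24, edgeR adjusted p = 0.0439). Neb, the nebulin that runs along the thin filament, had 34, 133 and 38 counts against 143, 95 and 647. Letmd1 KO mouse 2 was below wild-type mouse 2 for Neb, which was called higher at a log2 fold change of 1.56 (SE 0.54, edgeR adjusted p = 0.0391). Without Letmd1 KO mouse 3 the edgeR adjusted p was 0.193 for Tpm2 and 0.196 for Neb.

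Of the 7 genes of the Z disc and scaffold, Des was the only one called by edgeR's quasi-likelihood test over all 6 mice. The shares of all genes tested were 23.7% called higher and 22.3% called lower. Des encodes desmin, an intermediate filament that smooth muscle and other contractile cells also hold, and had 285, 315 and 318 counts among wild-type mice and 526, 268 and 1192 among Letmd1 KO mice. In CPM it was 30.7, 33.4 and 41.4 against 57.7, 35.4 and 70.0, with Letmd1 KO mouse 2 inside the wild-type range. It was called higher at a log2 fold change of 0.64 (SE 0.23, edgeR adjusted p = 0.0483), and at 0.41 with an edgeR adjusted p of 0.195 without Letmd1 KO mouse 3. The 10 smooth muscle markers summed to 122 to 137 CPM in wild-type BAT and 167 to 212 CPM in Letmd1 KO BAT. Of 9 tested, 1 was called higher, against 23.7% of all genes tested. It was Acta2 (log2 fold change 1.02, edgeR adjusted p = 0.00187). The part of the smooth muscle markers in the results for Des and Tpm2 was not tested. Ttn, the giant spring that joins the Z disc to the thick filament, had 10, 423 and 11 counts against 425, 273 and 1948 (log2 fold change 2.05, edgeR adjusted p = 0.132). Actn3, the alpha-actinin of fast fibres, had 0, 41 and 3 counts against 27, 22 and 209, while Actn2, that of all fibres, had 6, 18 and 11 against 17, 9 and 87. Tcap and Myoz1, which tie proteins to the Z disc, and Ldb3, a Z disc adaptor, had log2 fold changes of 1.48, 1.88 and 1.64 and were not called (lowest edgeR adjusted p = 0.054, for Ldb3). Some other settings called Ldb3 higher, among them DESeq2 (DESeq2 adjusted p = 0.0145) and library size alone (edgeR adjusted p = 0.0188). Others did not, among them quantile normalization (limma adjusted p = 0.136) and leaving out Letmd1 KO mouse 3 (edgeR adjusted p = 0.267).

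Of the calcium handling genes, Casq1, the calcium store protein of the sarcoplasmic reticulum, was called higher. It had 8, 34 and 2 counts among wild-type mice and 52, 20 and 241 among Letmd1 KO mice, with Letmd1 KO mouse 2 below wild-type mouse 2 in CPM. The log2 fold change was 2.25 (SE 0.78, edgeR adjusted p = 0.0407) and 1.38 without Letmd1 KO mouse 3 (edgeR adjusted p = 0.216). Atp2a1, the calcium pump of fast fibres, had 32, 222 and 23 counts against 168, 129 and 983. Pvalb, the calcium buffer of fast fibres, had 0, 289 and 0 counts against 376, 213 and 1519. The release channel Ryr1, its voltage sensor Cacna1s and its anchor Trdn were at 0 counts in wild-type mice 1 and 3, and had 36, 11 and 92 counts in wild-type mouse 2. Sln, a small inhibitor of the calcium pump, had 3 counts in Letmd1 KO mouse 3 and 0 elsewhere, under or at the floor in all mice.

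None of the 6 energy supply genes was called by edgeR's quasi-likelihood test, against 23.7% of all genes tested called higher and 22.3% lower. Ckm, the muscle creatine kinase, had 0, 227 and 0 counts among wild-type mice and 221, 136 and 1196 among Letmd1 KO mice. Wild-type mouse 2 was at 24.05 CPM, next to Letmd1 KO mouse 1 at 24.3 CPM, and the log2 fold change was 2.21 (SE 1.16, edgeR adjusted p = 0.147). Pgam2 (a glycolytic mutase) and Ampd1 (an AMP deaminase) were also at 0 in wild-type mice 1 and 3. Mb, the oxygen-binding myoglobin, had 21, 50 and 17 counts against 31, 27 and 157, and Eno3 (muscle enolase) had 51, 125 and 45 against 103, 63 and 384. Pygm, the muscle glycogen phosphorylase, had 27, 129 and 37 against 77, 62 and 506. These last 3 genes were over the floor in every mouse, with log2 fold changes of 0.76, 0.80 and 1.14 that did not pass the test.

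The genes thus fell into 2 patterns in wild-type mice 1 and 3. In both of these mice 20 genes were at or under the floor although they were over it in another mouse, and 17 of the 39, Sln among them, were at 0 in both. Another 16 were over the floor in both mice, among them Myl1, Des, Tpm2 and Myl3 with 1414, 603, 192 and 152 counts over the pair. Acta1 and Casq1 were over it in 1 of them. The called genes Myh1, Myh2 and Tnnt1 are of the first kind, and Tpm2, Des, Neb and Myl3 of the second.

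The fast isoforms made up most of the muscle counts in each mouse. Fast genes summed to 85.6, 427 and 97.8 CPM in the wild-type mice and 391, 291 and 1032 CPM in the Letmd1 KO mice, while slow genes summed to 9.05, 14.62 and 10.9 CPM against 7.13, 8.98 and 23.0 CPM. The fast share of the fast and slow counts was 90.4% (95% Wilson interval 88.3 to 92.2), 96.7% (96.1 to 97.2) and 89.9% (87.7 to 91.8) in the wild-type mice. It was 98.2% (97.7 to 98.6), 97.0% (96.2 to 97.6) and 97.8% (97.6 to 98.0) in the Letmd1 KO mice. The Letmd1 KO mice were above the wild-type mice, with wild-type mouse 2 next to Letmd1 KO mouse 2. The Wilson intervals cover counting error within a library only, reads from PCR are not independent molecules, and the spread between mice is not in them. In wild-type mice 1 and 3 the share rested on Myl1 and Myl3, and without them only 90 and 58 counts were left, of which 90% and 87.9% were fast. Without these 2 genes wild-type mouse 2 was at 97.9%, inside the range of 96.9% to 98.2% of the Letmd1 KO mice.

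**Figure D3:**
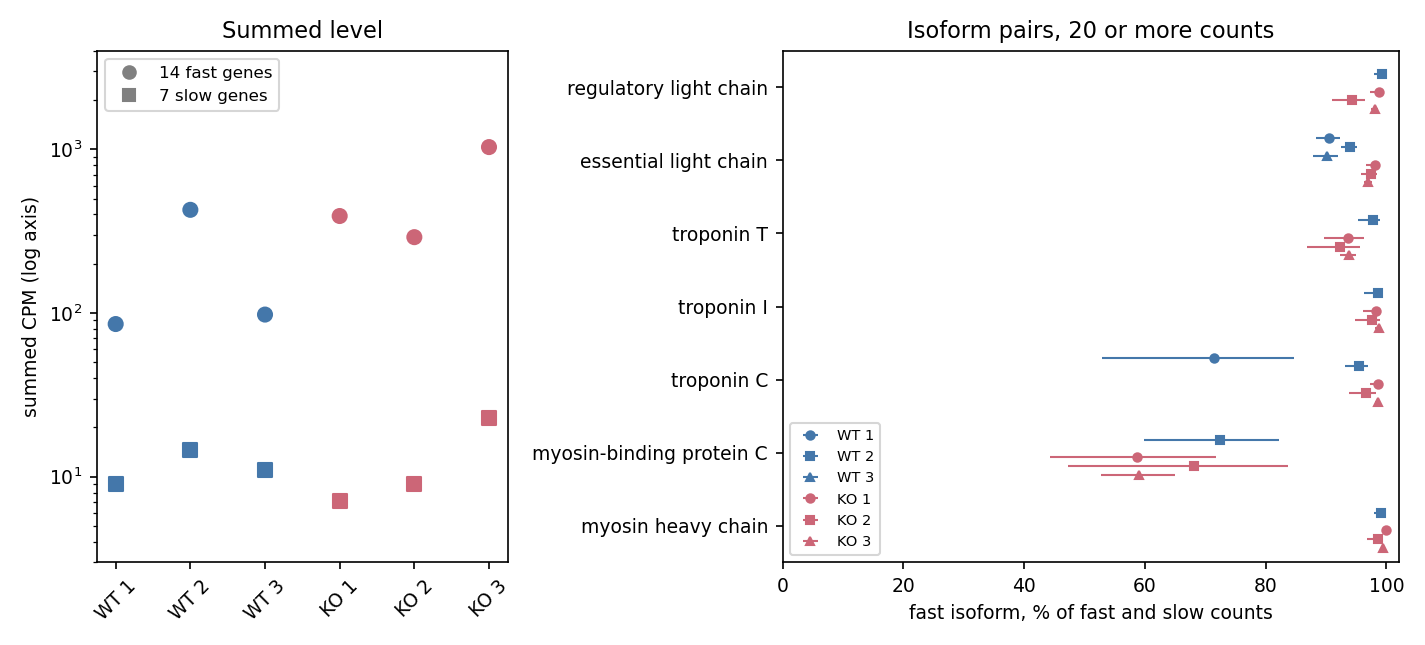
Left, summed CPM of the 14 fast genes (circles) and 7 slow genes (squares) in each mouse on a log axis, blue for wild type and red for Letmd1 KO. Right, share of the fast isoform in each isoform pair and mouse with at least 20 counts, with 95% Wilson intervals. Fast isoforms are over 90% of most pairs, and the myosin-binding protein C pair is the lowest, at 58.7% to 72.4%.

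Pair by pair, the fast isoform was the larger in each mouse with over 20 counts of a pair. Fast heavy chains were 99.1% of heavy chain counts in wild-type mouse 2 and 99.9%, 98.6% and 99.5% in the Letmd1 KO mice. Troponin T was 97.7% fast in wild-type mouse 2 (95% Wilson interval 95.4 to 98.9) and 93.7% (89.7 to 96.2), 92.4% (86.8 to 95.7) and 93.8% (92.3 to 94.97) in the Letmd1 KO mice. Myosin-binding protein C had the lowest fast share, at 72.4% (59.8 to 82.2) in wild-type mouse 2 and 58.7%, 68.2% and 59.0% in the Letmd1 KO mice. The essential light chains were 90.5%, 93.9% and 90.1% fast in the wild-type mice and 98.1%, 97.5% and 97.0% fast in the Letmd1 KO mice, without overlap. This was the pair that holds Myl3, and Myl1 itself did not differ between the genotypes beyond its spread. In wild-type mice 1 and 3 the troponin C pair had 28 and 9 counts, of which 71.4% (52.9 to 84.7) and 44.4% (18.9 to 73.3) were fast, while the heavy chain and myosin-binding protein C pairs had at most 1 count.

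Counts per 100 counts of Acta1 could be compared in wild-type mouse 2 and in the Letmd1 KO mice, which had 776, 694, 521 and 4936 counts of Acta1. Wild-type mice 1 and 3, with 6 and 3, gave no usable ratio. Of the 34 other tested muscle genes, 17 stayed within a range of 2-fold over these 4 mice and 17 did not. The next 3 genes are among those with the narrower ranges. Ckm was at 29.3 in wild-type mouse 2 and at 31.8, 26.1 and 24.2 in the Letmd1 KO mice. Tnni2 was at 34.9 and at 47.0, 46.1 and 36.5, and Tnnc2 at 58.4 and at 74.4, 49.5 and 59.1. Wild-type mouse 2 lay inside the range of the Letmd1 KO mice for Ckm and Tnnc2 and just below it for Tnni2. Myl3 had the widest range among the tested genes, 6.42-fold, with 10.2 in wild-type mouse 2 and 1.59 to 2.69 in the Letmd1 KO mice. Tnnc1, Tcap, Des and Tpm2 also ranged over 3-fold, and Myl1 ranged 2.96-fold.

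**Figure D4:**
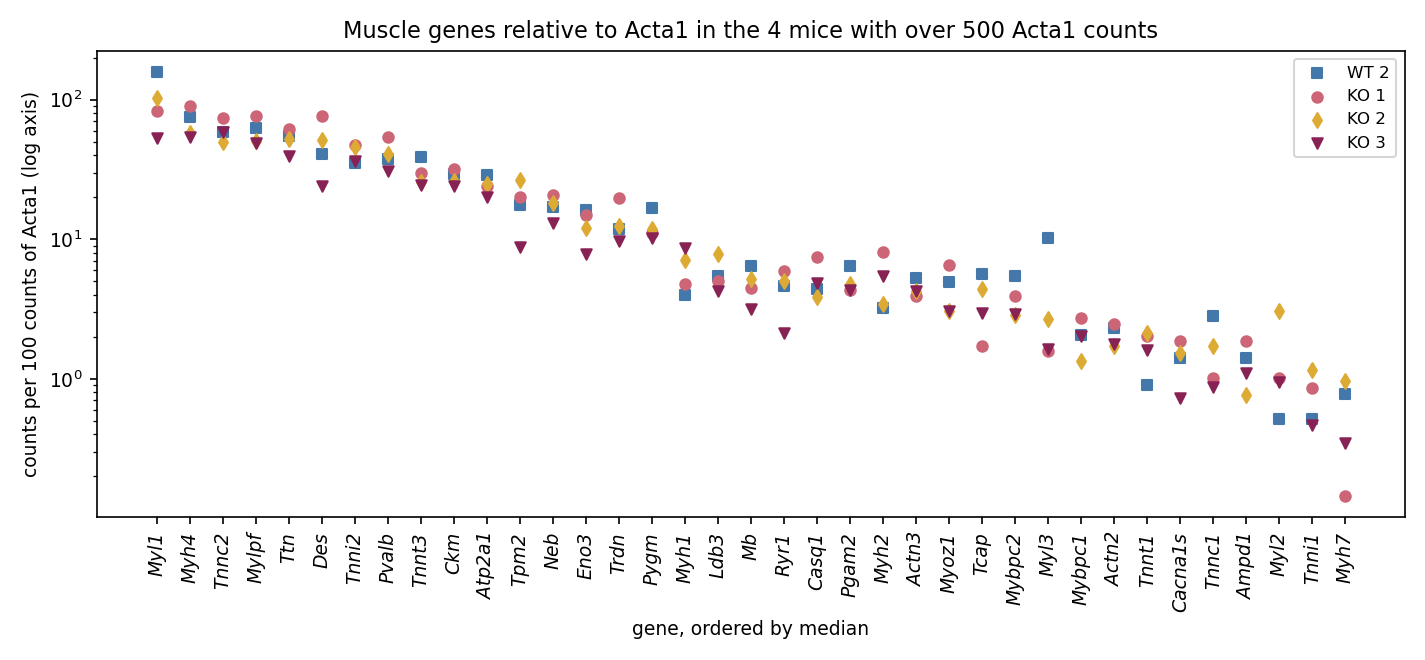
Counts per 100 counts of Acta1 on a log axis for 37 muscle genes, ordered by their median, in wild-type mouse 2 (squares) and the 3 Letmd1 KO mice. For Ckm the 4 points lie between 24.2 and 31.8, while for Myl3 wild-type mouse 2 is at 10.2 and the Letmd1 KO mice are at 1.59 to 2.69.

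With the level of Acta1 in each mouse as a term of the model, an alternative added after the data were seen, 0 of 35 muscle genes were called by edgeR's quasi-likelihood test, against 27.3% of all genes tested. The median log2 fold change was -0.0039, and 1 gene had an unadjusted p under 0.05. Acta1 is itself 1 of the 35, so its own value in that model is fixed by construction. Of the other 34, 15 took the opposite sign. The levels of many of these genes follow that of Acta1 across the mice, so a count near 0 and a median near 0 are in large part set by the choice of this term, and no test of the muscle genes is drawn from it.

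The spread between mice of a genotype was large for the muscle genes. The SD of log2 CPM within a genotype had a median of 0.229 over all genes tested and 1.75 over the 35 muscle genes, and 29 of these were over the 95th percentile of all genes (0.749). The 5 largest of all 12995 values belonged to Myh4 (3.45), Tnnt3, Pvalb, Acta1 and Ckm (2.92), and 14 of the 20 largest were muscle genes of the list. Tpm2 (0.36), Des (0.39), Myl1 (0.56) and Myl3 (0.67) had the smallest SDs, at the 73.4, 76.1, 88.5 and 92.9 percentiles. All 4 were over the floor in wild-type mice 1 and 3, as were Ttn, Tnnc2, Tnni2 and Mylpf, whose SDs were 2.09 to 2.36.

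**Figure D5:**
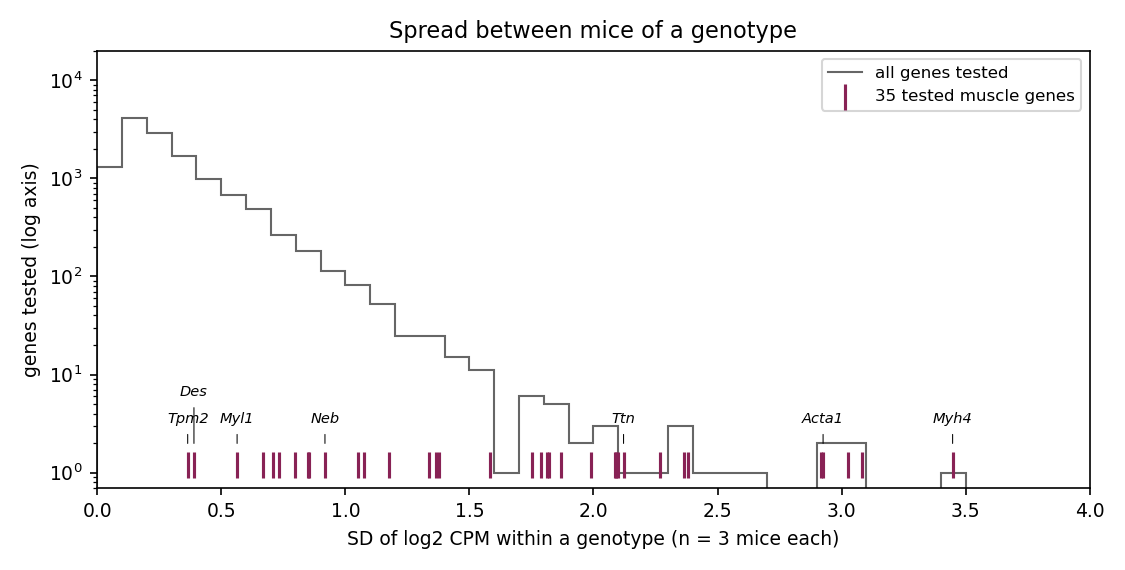
Number of genes (log axis) by the SD of log2 CPM between the mice of a genotype, pooled over both genotypes, for all 12995 genes tested (line), with the 35 tested muscle genes as ticks. The line peaks under 0.3, and Acta1 and Myh4 lie near 3 and 3.5.

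The genes whose log2 CPM over the 6 mice lay nearest to that of Acta1, by root mean square distance after centring, were Ckm (0.19), Tnnt3 (0.26) and Pvalb (0.37). Of the 20 nearest, 16 were in the muscle list. The 10 nearest outside it were A930016O22Rik, Xirp2, Eef1a2, Apobec2, Myom2, Klhl31, Prnd, Capn6, Trim63 and Smpx, at distances of 0.56 to 2.01. A930016O22Rik had 0, 100 and 0 counts among wild-type mice and 107, 59 and 608 among Letmd1 KO mice. It lies inside Ckm on the opposite strand, and since the use of strand in counting is not given in the sources used here, its reads and those of Ckm cannot be told apart. Prnd (log2 fold change 3.21) and Capn6 (3.42) were called higher and did not overlap, with edgeR adjusted p = 0.00466 and 0.00185.

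A second list, of 40 other skeletal muscle genes, held 21 that were tested. Of these, 3 were called higher and 2 lower, against 23.7% and 22.3% of all genes tested, and the median log2 fold change was 1.0. Without wild-type mouse 2, 10 of 22 were called higher and 1 lower, against 19.1% and 18.6% of all genes tested. Without Letmd1 KO mouse 3, 2 of 21 were called higher and 1 lower, against 19.7% and 18.6% of all genes tested. Myom2, a protein of the M band, had 0, 11 and 0 counts among wild-type mice and 31, 15 and 95 among Letmd1 KO mice, and was called higher at a log2 fold change of 3.16 (edgeR adjusted p = 0.0196). Its edgeR adjusted p was 0.0809 without Letmd1 KO mouse 3. Tpm1, a tropomyosin of many cell types, had 78.8, 112 and 86.8 CPM against 208, 157 and 286 CPM and rose by 1.23 (edgeR adjusted p = 0.00148). The genes called lower were Pfkm, a phosphofructokinase that fat also uses, which fell by 1.29 (edgeR adjusted p = 0.000465), and Unc45b, a myosin chaperone, which fell by 0.47 (edgeR adjusted p = 0.0454). Pfkm had 441, 478 and 355 counts against 139, 138 and 428, and Unc45b 488, 521 and 324 against 402, 234 and 564, so for both of them wild-type mouse 2 was close to the other wild-type mice. The call of Unc45b was lost without wild-type mouse 2 (edgeR adjusted p = 0.132) and without Letmd1 KO mouse 3 (0.137), while those of Tpm1 and Pfkm were kept.

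Cox6a2, the muscle and heart form of a cytochrome c oxidase subunit, had the largest fold of this list. It had 1, 37 and 0 counts among wild-type mice and 2443, 1331 and 5500 among Letmd1 KO mice. The genotypes did not overlap, at 0 to 3.92 CPM against 176 to 323 CPM, and the log2 fold change was 7.48 (SE 0.71, edgeR adjusted p = 4.48e-05). In wild-type mouse 2, whose Acta1 level was slightly above that of Letmd1 KO mice 1 and 2, Cox6a2 was at 3.92 CPM. With the level of Acta1 as a term, its log2 fold change was 5.95 (edgeR adjusted p = 0.000204). It stayed called without wild-type mouse 2 (edgeR adjusted p = 1.28e-05) and without Letmd1 KO mouse 3 (log2 fold change 7.28, edgeR adjusted p = 0.000199). Wild-type mice 1 and 3 were both under the floor, so without wild-type mouse 2 the log2 fold was at least 9.48. On the opposite strand, Itgad spans the whole of Cox6a2, which lies on chromosome 7 from 128205435 to 128206387. Itgad had 0 counts in each wild-type mouse and 160, 86 and 320 in the Letmd1 KO mice. Reads of the 2 genes cannot be told apart without the use of strand.

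Among 9 embryonic and cardiac muscle genes, Tnni3 and Actc1 were tested and both were called higher, against 23.7% of all genes tested. Tnni3, the troponin I of the heart, had 1, 0 and 0 counts among wild-type mice and 37, 30 and 254 among Letmd1 KO mice. All wild-type mice were under the floor, so its level was at least 22.2-fold higher in Letmd1 KO BAT (edgeR adjusted p = 0.000399), and wild-type mouse 2 did not stand apart. With the level of Acta1 as a term the edgeR adjusted p was 0.011, and it was 0.00254 without wild-type mouse 2 and 0.000622 without Letmd1 KO mouse 3. Tnni3 overlaps Dnaaf3 on the same strand, which had 0 to 3 counts in wild-type BAT and 2, 10 and 16 in Letmd1 KO BAT. Actc1, the cardiac alpha-actin, had 5, 28 and 6 counts against 27, 32 and 139, with wild-type mouse 2 inside the range of the Letmd1 KO mice (log2 fold change 1.84, edgeR adjusted p = 0.036, and 0.171 without Letmd1 KO mouse 3). The heavy chains of the embryo, the newborn and the atrium (Myh3, Myh8 and Myh6) had at most 10 counts in any mouse, and Myl7, the atrial light chain, had 0 counts in all mice.

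Regulators of muscle cell fate were near absent. Of 10 genes with a row, Myf5, Pax3 and Pax7, which mark muscle progenitors, had 0 counts in all 6 mice. Myod1 had at most 3 counts and Myog at most 4, both in Letmd1 KO mouse 3. Mef2c, which endothelial and other cells also express, had 486 to 687 counts in wild-type BAT and 621 to 1515 in Letmd1 KO BAT, and was not called (log2 fold change 0.45, edgeR adjusted p = 0.0958). At these depths a count of 0 allows a level of up to 0.396 CPM.

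Markers of other tissue that can lie beside muscle were summed in the same way. The 7 tendon and fascia genes summed to 4.20, 2.65 and 2.08 CPM in the wild-type mice and 9.22, 85.0 and 9.81 CPM in the Letmd1 KO mice. The high value of Letmd1 KO mouse 2 was mostly Thbs4, at 75.4 CPM, in the Letmd1 KO mouse with the lowest sum of muscle genes. Thbs4, an extracellular matrix protein, had 17, 15 and 5 counts among wild-type mice and 43, 571 and 118 among Letmd1 KO mice, and was called higher without overlap (log2 fold change 4.34, edgeR adjusted p = 0.0107). It was the only one called of the 2 genes of that list that were tested, against 23.7% of all genes tested called higher. Tnmd, a defining tendon gene, had 0 counts in each wild-type mouse and 6, 1 and 5 in the Letmd1 KO mice. The 8 Schwann cell and nerve genes summed to 322, 306 and 316 CPM against 612, 446 and 638 CPM. Of 8 tested, 6 were called higher, against 23.7% of all genes tested.

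For cell types that belong to the depot, wild-type mouse 2 lay near the other wild-type mice. Over all genes tested, 23.7% were called higher and 22.3% lower. The 6 macrophage genes summed to 124 to 174 CPM in wild-type BAT and 758 to 1410 CPM in Letmd1 KO BAT, with 6 of 6 called higher. The 10 brown adipocyte genes had 8 called lower and 0 higher by edgeR's quasi-likelihood test, and wild-type mouse 2 had the lowest sum of the wild-type mice, 39885 CPM. The 6 endothelial genes summed to 448 to 556 CPM against 294 to 384 CPM, with 1 called higher and 2 lower. The part of these cell types in the results for the muscle genes was not tested.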

How the data were processed

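Whole BAT depots, 3 from wild-type and 3 from Letmd1 KO mice, were analysed, with groups taken from the sample labels. The authors prepared QuantSeq 3′ libraries, aligned single-end reads to mm10 with Bowtie2, and used bedtools to count reads on genes, those with several alignments included, as the paper and the submitters' processing notes give it. Tool versions, the gene annotation and the use of strand are not given in the sources used here. The deposited values are whole-number counts without normalization. They do not carry the quantile normalization described in the paper.

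The members and gene lists were chosen with earlier results of these data known, so no list counts as independent support. The named genes are the 39 muscle genes, the genes of the marker lists (some of which are not reported here), Letmd1, and the 10 tested genes outside the list nearest to Acta1. A few overlapping genes were named after their values were seen. Of 23282 rows, 5588 had no counts, and 12995 passed edgeR's filter (minimum count 10, minimum total 15). Counts were tested in R 4.3.3 with edgeR 4.0.16 (TMM scaling, quasi-likelihood test, Benjamini-Hochberg adjustment over all genes tested, threshold 0.05). TMM factors were 0.852 to 0.886 in wild-type BAT and 1.13 to 1.17 in Letmd1 KO BAT, so scaling can move all folds together. Log2 CPM values had a prior count of 2, for the spread, the distances, the replicate deviations, the Acta1 term and limma. The fold changes of edgeR did not use it. P-values set the genotype difference against the spread between these mice, with spread estimates shared in part across genes. Exact tests of 3 against 3 mice cannot go below 0.1.

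No 2 mice of a genotype agreed within sampling noise (chi-square over its degrees of freedom, 12.2 to 37.0). The fits were tested on simulated counts. Alternatives were library size alone, DESeq2 size factors, quantile normalization with limma 3.58.1, DESeq2 1.42.0, no filter, a mean of at least 50 counts, the replicate number as a block, leaving out each mouse in turn and, added after the data were seen, the Acta1 level as a covariate. For shares and sums, genes were left out. Positions came from GENCODE vM21 on GRCm38, and upstream sequences from RefSeq on GRCm38.p6.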

Additional observations from a re-analysis of the deposited data

How the results depend on the processing

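Of the 35 tested muscle genes, 8 were called (7 higher, 1 lower). The count was 14 with library size alone, 13 with quantile normalization and limma, 5 with DESeq2, and ranged from 1 to 30 when a mouse was left out. It was 3 without wild-type mouse 1, 4 without wild-type mouse 3, and 0 with the Acta1 level as a covariate. For the other skeletal muscle genes, 5 calls became 8 with library size alone, 8 without a filter, 3 at a mean of at least 50 counts, 2 with the Acta1 covariate, and 3 to 11 when a mouse was left out. Over all 12995 genes tested, 5978 calls became 7267 with library size alone, 5791 with quantile normalization and limma, and 5851 with DESeq2. Without a filter 6060 of 17694 genes were called, and 5033 of 10328 at a mean of at least 50 counts. Calls over all genes were 3544 with the Acta1 covariate and 4842 to 5868 when a mouse was left out. Library size alone moved the share of calls that were higher from 51.6% to 81.2% over all genes and their median fold from 0.033 to 0.45 on the log2 scale. Of the 7 genes called higher, none kept its call without Letmd1 KO mouse 3. With the Acta1 covariate none of the 8 called genes kept its call, and 15 of the 34 tested muscle genes other than Acta1 changed sign, which is no test of them, since the covariate is the level of a gene they follow.

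Under the alternatives other than the Acta1 covariate, the single muscle genes that changed sign were Myl1, with log2 fold changes of 0.38 (library size alone), 0.040 (quantile normalization), 0.014 (mean of at least 50 counts) and -0.57 to 0.19 when a mouse was left out, and Tnnc1, with -0.61 (quantile normalization) and -0.42 to 1.01 when a mouse was left out. Neither was called in any of these. Myl1 was at 0.18 without wild-type mouse 2, 0.19 without Letmd1 KO mouse 1 and 0.14 without Letmd1 KO mouse 2, and Tnnc1 at -0.03 without wild-type mouse 3 and -0.42 without Letmd1 KO mouse 3. The cause of these changes was not tested.

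The replicate numbers did not pair the mice: deviations of mice with the same number correlated at 0.069, -0.111 and -0.087. With the replicate number as a block, 5599 genes, 6 muscle genes and 5 other skeletal muscle genes were called. Depth limits the genes at or under 3 counts, whose edgeR folds depend on the default prior of edgeR, not on the prior count of 2.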

Other observations

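Of the 39 muscle genes, 22 overlap a gene of another symbol in the GENCODE annotation, and for 11 of these an overlapping gene has a row in the count files. Atp2a1, the calcium pump of fast fibres, overlaps Rabep2 on the opposite strand, which had 98, 180 and 48 counts among wild-type mice and 152, 137 and 535 among Letmd1 KO mice. Tnnc2 overlaps Ube2c, with 55, 21 and 23 against 164, 103 and 220 counts, and Mb overlaps Apol6, with 192, 240 and 257 against 142, 221 and 204 counts. Of these neighbours, Rabep2 was highest in the mice in which Atp2a1 was highest, wild-type mouse 2 among wild-type mice and Letmd1 KO mouse 3 among Letmd1 KO mice. For Ube2c, wild-type mouse 2 was the lowest of the 6 mice in counts, although Tnnc2 was 453 in it.

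Wild-type mouse 2 was above both Letmd1 KO mice 1 and 2 for 14 of the 39 muscle genes, between them or equal for 18, and below both for 7.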
